A study of Mus musculus with 20 samples.

Results

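TGF-beta and fibrosis genes were described by 9 transcripts measured in mouse liver and kidney: the ligand Tgfb1, the inhibitor Smad7, the target Ccn2, the matrix genes Col1a1, Col1a2, Col3a1 and Fn1, and the contractile genes Acta2 and Tagln. They were chosen by symbol, each symbol matched 1 Ensembl gene, and together they make up 9 of the 57010 genes of the count table. The mice were UM-HET3 males, a genetically heterogeneous cross, 12 months old, and no other age, sex or untreated group was measured. For 28 days, 6 mice received the 7c cocktail and 4 mice received vehicle from osmotic minipumps placed under the skin, and polyA RNA from a piece of frozen liver and of frozen kidney was sequenced, which gave 20 libraries. The 7 compounds of 7c were repsox, tranylcypromine, DZNep, CHIR99021, forskolin and TTNPB at 0.1 mg/kg/day each and valproate at 1 mg/kg/day. The vehicle, which the treated mice received as solvent, was 50% DMSO and 50% PEG300. The compounds were not given one by one, so that no value here belongs to a single compound, and the study asked whether short treatment at this low dose changed molecular markers of aging.

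TGF-beta is a secreted cytokine that is stored in the matrix in a latent form, and its active form brings together type II and type I receptor kinases, which phosphorylate SMAD proteins that carry the signal to the nucleus. In liver and kidney the pathway is known for driving stellate cells and fibroblasts to lay down collagen and fibronectin and to build contractile fibres. Repsox inhibits the kinase of the TGF-beta type I receptor, and SMAD7 is an inhibitory SMAD whose gene is induced by the pathway it restrains.

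The libraries held 28383359 to 30571119 assigned counts in 7c livers and 31670440 to 34153084 in vehicle livers, and 33003173 to 64872451 in 7c kidneys and 27855849 to 39651123 in vehicle kidneys, so that each 7c liver was counted less deeply than each vehicle liver. The tissue labels went with the markers: summed over 8 hepatocyte genes, livers held at least 82156 CPM (counts scaled to library size) and kidneys at most 4027, while 8 kidney tubule genes summed to at least 37005 CPM in kidneys and at most 1.76 in livers. In kidney the first principal component took 29.7% of the variance and separated 7c kidney 5 and vehicle kidney 2 from the other 8 libraries. In liver it took 15.9%, and vehicle liver 3 had a weight of 0.908 on it, against -0.256 to 0.0691 in the other 9. In liver, 7c liver 6 held 788 CPM of 8 skeletal muscle genes, against 0.611 to 2.06 in the other 9 livers. Deviations of a kidney from the kidney mean correlated weakly with log transcript length. The r was -0.215 in 7c kidney 5 and -0.197 in vehicle kidney 2, against -0.143 to 0.218 in the other kidneys. The highest were 7c kidney 3 (0.218) and vehicle kidney 3 (0.216). In livers r was -0.176 to 0.131. The part of length in the values of the 9 genes was not tested.

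None of the genes tested passed the threshold for a difference between 7c and vehicle mice, and Tagln was too low in liver to be tested there. In liver 8 genes had enough counts to be tested and 0 passed an adjusted p of 0.05, where 0.00666% of all genes tested passed, and in kidney 0 of 9 passed against 0.0% of all genes (edgeR quasi-likelihood test with Benjamini-Hochberg adjustment over all genes). Without adjustment, 0 of the 8 and 0 of the 9 were under 0.05. In kidney, where edgeR called 0 of 17749 genes and 463 were under 0.05 without adjustment, 18 genes were called by DESeq2, 14 by the likelihood ratio test and 2 by limma-voom. The members' log2 fold changes lay between -0.12 and 0.41 in liver, with a median of 0.11 against 0.0017 over all 15012 genes tested, and between -0.06 and 0.30 in kidney, with a median of 0.15 against -0.0057. The 95% intervals differed in width, the narrowest in kidney being that of Col1a2, from 0.919 to 1.32 of the vehicle level, and that of Acta2 in liver running from 0.613 to 2.88. In bulk tissue, fewer cells of a type and less RNA per cell cannot be told apart.

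**Figure D1:**
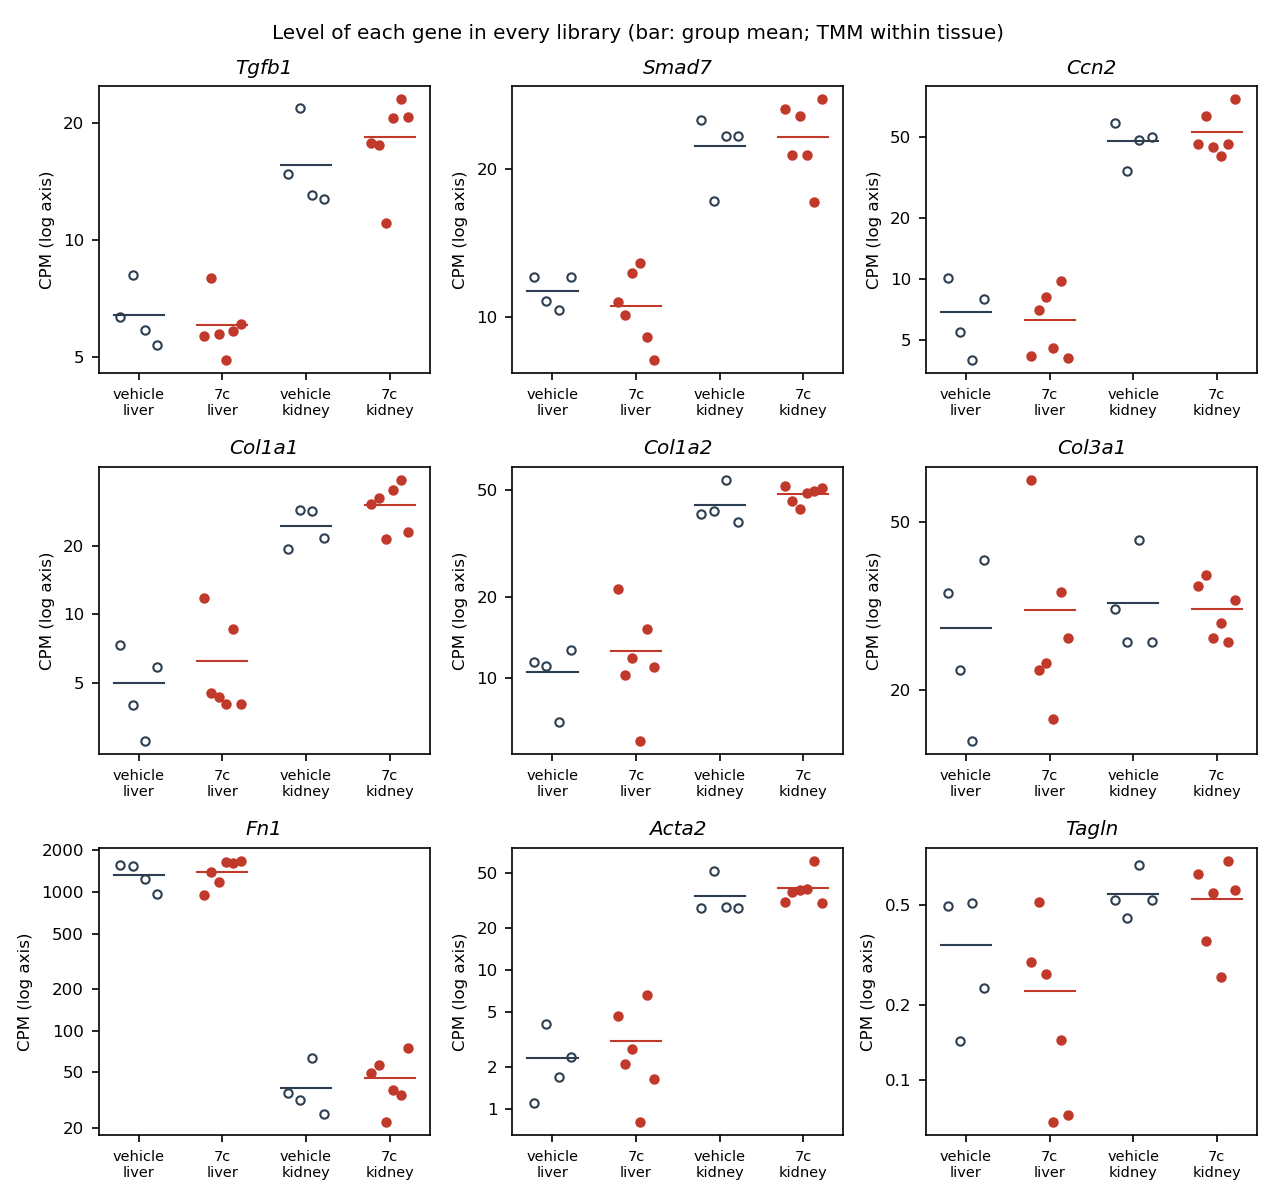
Level of each of the 9 genes in every library, as CPM scaled by TMM within each tissue on a log axis; open points are vehicle mice, filled points are 7c mice and bars are group means. In each panel the 7c and vehicle points of a tissue overlap, while Fn1 lies far higher in liver and Acta2 and Ccn2 far higher in kidney.

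Tgfb1, the ligand, was expressed at low levels in both tissues. All levels from here to the comparison of tissues are CPM scaled by TMM within a tissue and compare mice, not genes. In vehicle livers Tgfb1 stood at 6.33, 8.14, 5.85 and 5.38 CPM, and in 7c livers at a lowest of 4.91, a median of 5.78 and a highest of 7.98 CPM. The groups overlapped, with 1 vehicle liver above all 7c livers and 1 7c liver below all vehicle livers. 7c over vehicle gave a log2 fold change of -0.09 (95% CI -0.48 to 0.30, adjusted p = 1.00, edgeR). In vehicle kidneys Tgfb1 stood at 14.8, 21.9, 13.1 and 12.7 CPM, and in 7c kidneys at a lowest of 11.1, a median of 19.2 and a highest of 23.1 CPM. Only 1 of the 6 7c kidneys was above all vehicle kidneys and 1 was below them all. In kidney the log2 fold change was 0.24 (95% CI -0.21 to 0.70, adjusted p = 0.997, edgeR), and 0.37 (adjusted p = 0.583) without the 2 kidney libraries that stood apart.

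Smad7 encodes the inhibitory SMAD of the pathway. In vehicle livers it stood at 12.1, 10.8, 10.3 and 12.05 CPM, and in 7c livers at a lowest of 8.16, a median of 10.4 and a highest of 12.9 CPM. The 7c livers spread on both sides, with 3 of 6 below all vehicle livers and 2 of 6 above them. Between the groups the log2 fold change was -0.10 (95% CI -0.42 to 0.22, adjusted p = 1.00, edgeR). It lay between -0.17, without 7c liver 4, and -0.036, without 7c liver 6. In vehicle kidneys Smad7 stood at 25.3, 17.2, 23.4 and 23.5 CPM, and in 7c kidneys at a lowest of 17.2, a median of 23.6 and a highest of 27.9 CPM. The lowest value of each group belonged to the library that stood apart, 7c kidney 5 and vehicle kidney 2. The fitted log2 change was 0.06 (95% CI -0.28 to 0.41, adjusted p = 0.997, edgeR).

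Ccn2 encodes connective tissue growth factor, a secreted matricellular protein induced by TGF-beta and by YAP, and it varied between mice of the same group. In vehicle livers it stood at 10.1, 5.50, 4.01 and 7.98 CPM, and in 7c livers at a lowest of 4.12, a median of 5.84 and a highest of 9.78 CPM. The 7c range lay inside the vehicle range. Its log2 fold change was -0.12 (95% CI -0.78 to 0.54, adjusted p = 1.00, edgeR). In vehicle kidneys Ccn2 stood at 58.1, 33.8, 48.2 and 49.9 CPM, and in 7c kidneys at a lowest of 40.1, a median of 45.9 and a highest of 76.5 CPM. The 2 highest kidneys were 7c kidneys and the lowest was vehicle kidney 2, with the other values mixed. The log2 fold change was 0.15 (95% CI -0.28 to 0.58, adjusted p = 0.997, edgeR), and 0.05 without the 2 libraries that stood apart. Of the exonic bases of Ccn2, 36.5% lie opposite the antisense gene Gm15270, which held 0 to 36 counts per library.

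Col1a1 and Col1a2 encode the chains of type I collagen, the main collagen of scars. In vehicle livers Col1a1 stood at 7.32, 4.01, 2.78 and 5.85 CPM, and in 7c livers at a lowest of 4.04, a median of 4.41 and a highest of 11.8 CPM. The 2 highest livers, 7c liver 1 and 7c liver 5, were above all vehicle livers, and the other 4 lay within the vehicle range. The log2 fold change of Col1a1 in liver was 0.32 (95% CI -0.46 to 1.10, adjusted p = 1.00, edgeR), and lay between 0.038, without 7c liver 1, and 0.56, without vehicle liver 1. Vehicle liver 3, which stood apart on the first component, held the lowest Col1a1 of all livers, and without it the value was 0.13. In vehicle kidneys Col1a1 stood at 19.2, 28.7, 28.2 and 21.5 CPM, and in 7c kidneys at a lowest of 21.4, a median of 31.5 and a highest of 38.8 CPM. Of the 6 7c kidneys, 4 were above all vehicle kidneys. In kidney the log2 fold change was 0.30 (95% CI -0.10 to 0.71, adjusted p = 0.997, edgeR), the lowest unadjusted p among the members in that tissue at 0.130, and it was 0.30 again without the 2 libraries that stood apart (adjusted p = 0.612).

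Col1a2 stood at 11.5, 11.1, 6.88 and 12.7 CPM in vehicle livers, and at a lowest of 5.83, a median of 11.4 and a highest of 21.4 CPM in 7c livers. As for Col1a1, 7c liver 1 and 7c liver 5 were the only livers above all vehicle livers. 7c over vehicle gave a log2 fold change of 0.25 (95% CI -0.37 to 0.87, adjusted p = 1.00, edgeR), with 0.035 without 7c liver 1 and 0.097 without vehicle liver 3. In vehicle kidneys it stood at 40.95, 41.8, 54.6 and 38.2 CPM, and in 7c kidneys at a lowest of 42.6, a median of 49.2 and a highest of 52.0 CPM. Of the 4 vehicle kidneys, 3 were below all 7c kidneys and 1, vehicle kidney 3, was above them all. Between the groups the log2 fold change was 0.14 (95% CI -0.12 to 0.40, adjusted p = 0.997, edgeR).

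Col3a1 encodes type III collagen, which forms finer fibres together with type I. It stood at 34.0, 22.4, 15.2 and 40.7 CPM in vehicle livers, and at a lowest of 17.1, a median of 24.9 and a highest of 62.9 CPM in 7c livers. Only 7c liver 1 was above all vehicle livers, and the log2 fold change of 0.15 (95% CI -0.59 to 0.88, adjusted p = 1.00, edgeR) became -0.18 without that mouse and -0.054 without vehicle liver 3. In vehicle kidneys Col3a1 stood at 31.1, 26.0, 45.3 and 26.0 CPM, and in 7c kidneys at a lowest of 26.0, a median of 30.8 and a highest of 37.5 CPM. The 7c range lay inside the vehicle range, and the log2 fold change was -0.04 (95% CI -0.42 to 0.34, adjusted p = 0.997, edgeR).

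Bases upstream of the starts of Col1a2 and Col3a1 are shown because the fibrillar collagens varied together across livers, as described further on. Both are reference bases of mouse build GRCm39 on the plus strand, limited to the longest stretch of the RefSeq promoter window (250 bases before to 50 after the start) that lies in no annotated exon, at chr6:4505370-4505492 for Col1a2 and chr1:45350448-45350697 for Col3a1. Capitals mark the letters searched for on both strands: CAGACA (read TGTCTG on the other strand), which SMAD proteins can bind, CATTCC, which TEAD factors can bind, and TATAAA, the core of a TATA box.
Col1a2: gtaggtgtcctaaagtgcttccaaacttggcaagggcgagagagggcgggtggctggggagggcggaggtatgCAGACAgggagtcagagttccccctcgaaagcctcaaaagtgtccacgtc
Col3a1: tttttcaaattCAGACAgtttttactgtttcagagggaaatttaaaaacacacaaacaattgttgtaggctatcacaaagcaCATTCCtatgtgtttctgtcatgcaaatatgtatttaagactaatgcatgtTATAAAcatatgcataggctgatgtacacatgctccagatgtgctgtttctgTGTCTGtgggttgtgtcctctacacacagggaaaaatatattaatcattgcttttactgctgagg

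Such a window was at hand for 4 of the 9 members, Tgfb1, Col1a2, Col3a1 and Acta2. CAGACA was present in the windows of Col1a2, Col3a1 and Acta2, and in 21.0% of all 32851 windows. CATTCC was present in those of Col3a1 and Acta2 and in 14.7% of all, TATAAA in that of Col3a1 and in 13.6% of all, and CCAAT, which overlaps none of the others, in that of Col1a2 and in 37.4% of all. The palindrome GTCTAGAC and the CArG box were in none of the 4, and in 0.213% and 1.63% of all windows. The Tgfb1 window, of 77.0% G and C, held none of the motifs, while the Col3a1 window was 37.7% G and C. A match of letters is a description of the sequence and not a binding site.

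Fn1 encodes fibronectin, which hepatocytes secrete into plasma and fibroblasts assemble into matrix. In vehicle livers it stood at 1568, 1542, 1228 and 964 CPM, and in 7c livers at a lowest of 949, a median of 1489 and a highest of 1662 CPM. Of the 6 7c livers, 3 were above and 1 was below all vehicle livers. The fitted log2 change was 0.08 (95% CI -0.30 to 0.45, adjusted p = 1.00, edgeR). In vehicle kidneys Fn1 stood at 35.8, 31.8, 63.1 and 25.2 CPM, and in 7c kidneys at a lowest of 22.02, a median of 43.6 and a highest of 74.4 CPM. The groups overlapped over nearly their whole range, with 1 7c kidney above and 1 below all vehicle kidneys. Its log2 fold change was 0.23 (95% CI -0.46 to 0.93, adjusted p = 0.997, edgeR), and lay between 0.038, without 7c kidney 6, and 0.56, without vehicle kidney 3.

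Acta2 encodes smooth muscle alpha-actin, which marks smooth muscle and myofibroblasts, the contractile cells of a scar. In vehicle livers it stood at 1.12, 4.13, 1.71 and 2.40 CPM, and in 7c livers at a lowest of 0.813, a median of 2.42 and a highest of 6.64 CPM. The 2 highest livers were 7c liver 5 and 7c liver 1, and the lowest was also a 7c liver. The log2 fold change was 0.41 (95% CI -0.71 to 1.53, adjusted p = 1.00, edgeR), the widest interval among the 8 genes tested in liver, and lay between 0.043, without 7c liver 5, and 0.84, without vehicle liver 2. In vehicle kidneys Acta2 stood at 28.1, 51.4, 28.1 and 27.8 CPM, and in 7c kidneys at a lowest of 30.3, a median of 36.8 and a highest of 60.6 CPM. Of the 4 vehicle kidneys, 3 were below all 7c kidneys, and the fourth was vehicle kidney 2, which stood apart from the rest in its whole profile, as did 7c kidney 5, the kidney with 60.6 CPM. 7c over vehicle gave a log2 fold change of 0.20 (95% CI -0.29 to 0.70, adjusted p = 0.997, edgeR), and 0.30 (adjusted p = 0.580) without these 2 libraries. Leaving out only 7c kidney 5 gave 0.032, and leaving out only vehicle kidney 2 gave 0.48, so that the size of the value rested on these libraries.

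Tagln encodes transgelin, an actin-binding protein of smooth muscle. It was too low to be tested in liver, where it held 15, 5, 18 and 8 counts in vehicle mice and 2 to 16 counts in 7c mice. In kidney it held 15 to 27 counts in vehicle mice, or 0.523, 0.446, 0.722 and 0.524 CPM, and 10 to 44 counts in 7c mice, or a lowest of 0.259, a median of 0.569 and a highest of 0.751 CPM. The groups overlapped, and the log2 fold change was -0.06 (95% CI -0.91 to 0.78, adjusted p = 0.997, edgeR). Of its exonic bases 60.7% lie opposite the antisense gene Gm48529, which held 5 to 57 counts per library, and in all 66.7% lie opposite another gene. How the counting treated strand is not given in the sources used here, so the level of Tagln is uncertain. Tgfb1, Smad7 and Col1a1 overlap no annotated exon of another gene, and in the other members 2.45% to 36.5% of exonic bases do.

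**Figure D2:**
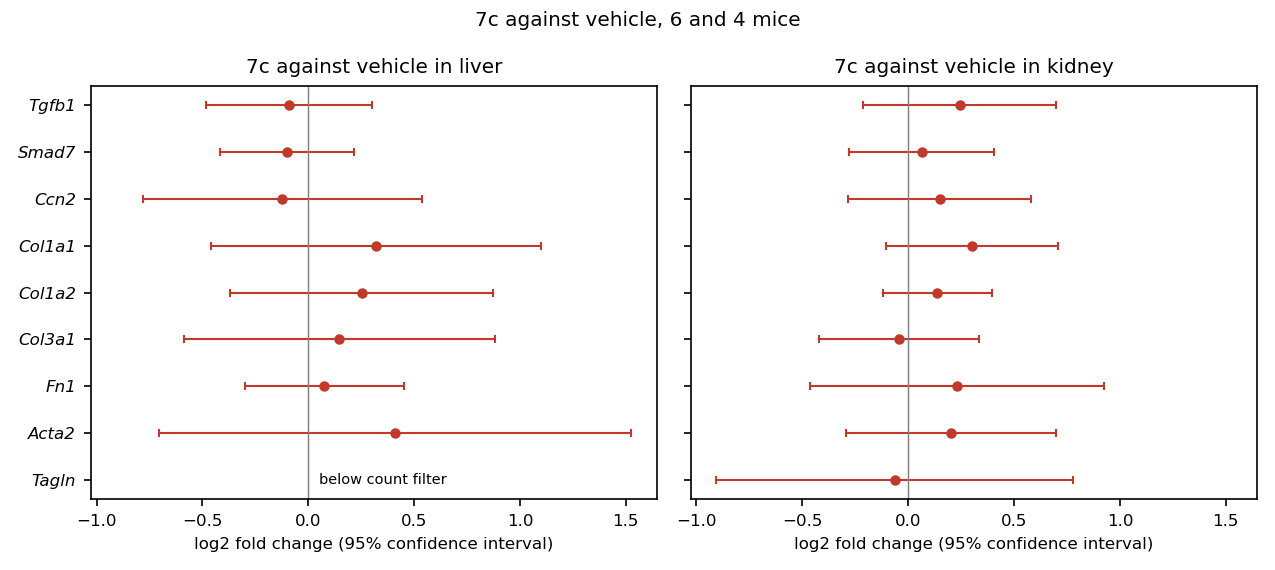
Log2 fold change of 7c over vehicle for each gene in liver and kidney, with 95% confidence intervals from the edgeR fit of each tissue; Tagln has no liver value because its counts were too low. Each interval includes 0, and the points lie within -0.12 and 0.41 for liver and within -0.06 and 0.30 for kidney.

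Markers of other cells varied beside these values. In kidney the sum over 10 fibroblast markers, led by Gsn and Col15a1, was 184 to 278 CPM in 7c mice and 150 to 194 CPM in vehicle mice, with none of the 10 at 0. The sum over 8 adipocyte markers, led by Fabp4 and Car3, was 81.1 to 218 CPM in 7c kidneys and 62.0 to 96.6 CPM in vehicle kidneys. The highest fibroblast sum in each tissue belonged to 7c liver 1, at 91.5 CPM against 46.0 to 76.9 in the other livers, and to 7c kidney 5, at 278 CPM. The sum over 10 hepatic stellate cell markers was 366 to 546 CPM in 7c livers and 404 to 548 CPM in vehicle livers, and that over 10 smooth muscle and pericyte markers was 96.5 to 155 CPM and 103 to 136 CPM, with Myocd at 0 in both. The part of these cells in the values of the 9 genes was not tested.

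The 7c effect was compared between the tissues in one fit of all 20 libraries with an interaction term. None of the 8 genes tested differed, against 0.00706% of the 14163 genes in that fit. The difference, kidney minus liver, was largest for Tgfb1, at 0.34 on the log2 scale (95% CI -0.25 to 0.93, adjusted p = 1.00, edgeR). It was 0.28 for Ccn2 (95% CI -0.49 to 1.06), and -0.01 for Col1a1 (95% CI -0.89 to 0.87). Without adjustment, 0 of the 8 were under 0.05 and 353 of all genes were; of all genes edgeR called 1, DESeq2 16 and the likelihood ratio test 22.

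The tissues differed far more than the treatments. Compared between vehicle kidneys and vehicle livers, 6 of the 9 genes passed the test, where 57.9% of all 18598 genes did: 5 were higher in kidney, as 31.0% of all genes were, and 1 was lower, as 26.8% were. The share of members called is thus near that of all genes, and the sizes are what is given here. The median over all genes was 0.11 and the 20 libraries were scaled together by TMM for these values, so they are not on the scale of the levels above.

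Acta2 was 2.90 ± 1.68 CPM in vehicle livers and 27.0 ± 9.51 CPM in vehicle kidneys (SD, n = 4 each). It was 9.28-fold higher in kidney (log2 3.21, SE 0.48, adjusted p = 5.67e-06, edgeR), and the groups did not overlap. Ccn2 was 8.51 ± 3.31 CPM in liver and 37.8 ± 7.92 CPM in kidney, 4.45-fold higher (log2 2.15, SE 0.30, adjusted p = 2.40e-06). Col1a1 was 6.16 ± 2.46 CPM in liver and 19.5 ± 3.84 CPM in kidney, 3.17-fold higher (log2 1.66, SE 0.34, adjusted p = 2.62e-04). Its partner chain went with it. Col1a2 was 13.1 ± 3.20 CPM in liver and 35 ± 5.70 CPM in kidney, 2.68-fold higher (log2 1.42, SE 0.26, adjusted p = 8.32e-05). The ligand Tgfb1 was 7.96 ± 1.68 CPM in liver and 12.5 ± 3.49 CPM in kidney, 1.57-fold higher (log2 0.65, SE 0.22, adjusted p = 0.0163).

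Fn1 went the other way. It was 1641 ± 381 CPM in vehicle livers and 31.1 ± 13.2 CPM in vehicle kidneys, 52.8-fold lower in kidney (log2 -5.72, SE 0.38, adjusted p = 1.51e-11, edgeR). The other 3 did not pass the test. Smad7 was 13.96 ± 1.07 CPM in liver and 17.8 ± 2.74 CPM in kidney (log2 0.35, SE 0.17, adjusted p = 0.0764), and it passed with RLE scaling (adjusted p = 0.0353) and in DESeq2 (adjusted p = 0.0298). Col3a1 was 34.6 ± 13.8 CPM in liver and 25.6 ± 7.16 CPM in kidney (log2 -0.43, SE 0.33, adjusted p = 0.269), and passed as lower in kidney without the mice numbered vehicle 3 (log2 -0.85; adjusted p = 0.0428), whose liver held the lowest and whose kidney the highest vehicle level. Tagln, whose level is uncertain through its antisense overlap, was 0.425 ± 0.225 CPM in liver and 0.441 ± 0.0923 CPM in kidney (log2 0.06, SE 0.59, adjusted p = 0.943). Whether a liver and a kidney of 1 number came from 1 mouse is not stated in the labels, so the test did not pair them. With the number as a block the same 6 genes passed, and Smad7 did not (adjusted p = 0.0987, edgeR).

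**Figure D3:**
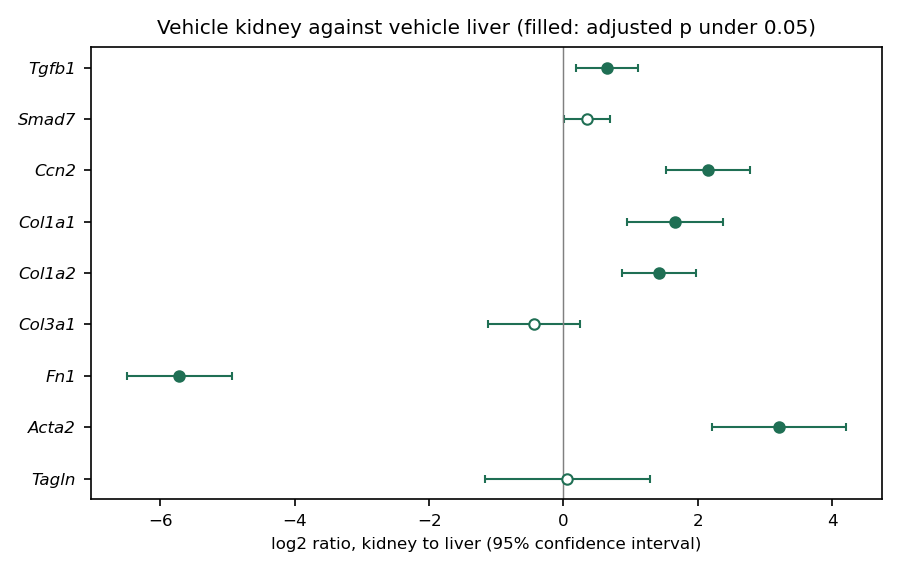
Log2 ratio of vehicle kidney to vehicle liver for each gene with 95% confidence intervals from the edgeR fit of all 20 libraries; filled points have an adjusted p under 0.05. Acta2 (3.21), Ccn2 (2.15), Col1a1 (1.66), Col1a2 (1.42) and Tgfb1 (0.65) lie to the right of 0 and Fn1 (-5.72) to the left.

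Levels of different genes were compared per length, as CPM per kilobase of all annotated exonic bases. In vehicle livers Fn1 came first at 83.7 ± 18.1 CPM per kilobase (SD, n = 4), and far below it came Col3a1 at 2.73 ± 1.11, Smad7 at 2.38 ± 0.186 and Ccn2 at 2.16 ± 0.844, which overlapped, and Tgfb1 at 1.26 ± 0.237, which overlapped with Ccn2. All 4 livers held less Col1a2 (0.835 ± 0.202), Col1a1 (0.760 ± 0.304) and Acta2 (0.724 ± 0.403) than Tgfb1 on this scale. Tagln was last at 0.169 ± 0.0907, but its rank in either tissue is uncertain because most of its exonic bases lie opposite other genes. In vehicle kidneys the order began with Ccn2 at 14.9 ± 3.17 and Acta2 at 10.5 ± 3.62, which overlapped, and went on with Smad7 at 4.71 ± 0.743. From there Col1a1 (3.72), Col1a2 (3.47), Col3a1 (3.12), Tgfb1 (3.07) and Fn1 (2.46) overlapped with their neighbours, and Tagln was last at 0.271 ± 0.0579. In 7c mice the first and the last gene of each tissue were the same as in vehicle mice. The order between them depended on the length used: by longest annotated transcript the vehicle kidney order after Ccn2 and Acta2 was Col1a2 (8.07), Tgfb1 (6.07), Col3a1 (5.67), Smad7 (4.96), Fn1 (4.63) and Col1a1 (4.12), and Tgfb1 and Col1a2 overlapped in vehicle livers.

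The make-up of the fibrillar collagens differed between the tissues. Per length, the ratio of Col3a1 to Col1a1 was 3.62 ± 0.615 in vehicle livers and 0.853 ± 0.218 in vehicle kidneys (SD, n = 4 each), with lowest and highest values of 2.97 and 4.45 in liver and 0.580 and 1.03 in kidney, which do not overlap. In 7c mice the ratio was 3.24 ± 0.600 in liver and 0.691 ± 0.179 in kidney (n = 6 each). The ratio of Col1a1 to Col1a2 was 0.896 ± 0.233 in vehicle livers and 1.08 ± 0.178 in vehicle kidneys, and these overlap. These ratios move with the length used: with the longest annotated transcript in place of all exonic bases the Col1a1 to Col1a2 ratio in vehicle livers was 0.426 and the Col3a1 to Col1a1 ratio was 5.93 in vehicle livers and 1.40 in vehicle kidneys.

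Across the 10 livers the fibrillar collagens went up and down together. Of 14 pairs of members set by their roles, 13 could be computed, and 2 passed Benjamini-Hochberg adjustment of the Pearson permutation p. Col1a1 correlated with Col3a1 at r = 0.92 (permutation p = 3.00e-04, adjusted 0.0039; Spearman's rho 0.81, permutation p = 0.00745, adjusted 0.0861). Without the 2 livers farthest from the median of Col1a1 r was 0.86, and within the 6 7c livers it was 0.92. Col1a1 correlated with Col1a2 at r = 0.83 (permutation p = 0.00318, adjusted 0.0207; rho 0.77, permutation p = 0.0132, adjusted 0.0861). Here r fell to 0.59 without the 2 farthest livers, and was 0.83 within the 7c livers, so that this relation rests largely on those livers. The 4 vehicle livers are too few for a value of their own. Neither pair passed without 7c liver 1 (r = 0.85, adjusted permutation p = 0.0608, and r = 0.71, adjusted permutation p = 0.174), and Col1a1 with Col1a2 did not pass without 7c liver 5 (r = 0.81, adjusted permutation p = 0.0804). These livers also held the highest fibroblast marker sums, 91.5 and 76.9 CPM. The sum over 8 mesothelium markers was at least 13.86 CPM in 7c livers 1, 5 and 6 and vehicle livers 1 and 4. It was 2.07 to 10.8 CPM in the other livers. Col3a1 was at least 26.6 CPM in the former livers and 15.2 to 23.2 CPM in the latter. Col1a1 differed in 7c liver 6, where it was low at 4.04 CPM. The part of either marker sum in these relations was not tested.

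In kidney the same pairs were looser. Col1a1 correlated with Col1a2 at r = 0.56 (permutation p = 0.0957, adjusted 0.306; rho 0.45, permutation p = 0.191, adjusted 0.459) and with Col3a1 at r = 0.10 (permutation p = 0.777, adjusted 0.888; rho 0.05, permutation p = 0.892, adjusted 0.892). Col1a1 correlated with Acta2 at r = 0.64 (permutation p = 0.0479, adjusted 0.207; rho 0.68, permutation p = 0.0351, adjusted 0.152), and at 0.33 without the 2 farthest kidneys. Whether the relations differ between the tissues was not tested. For the ligand no relation with its target or its inhibitor passed the test on these 10 libraries: Tgfb1 with Ccn2 gave r = 0.12 in liver and -0.08 in kidney, and Tgfb1 with Smad7 gave -0.31 and -0.53, with adjusted permutation p of at least 0.306. The other pairs computed did not pass either, with r for Col1a1 and Fn1 of -0.29 in liver and 0.24 in kidney, for Col1a1 and Acta2 of 0.49 in liver, and for Acta2 and Tagln of -0.05 in kidney.

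**Figure D4:**
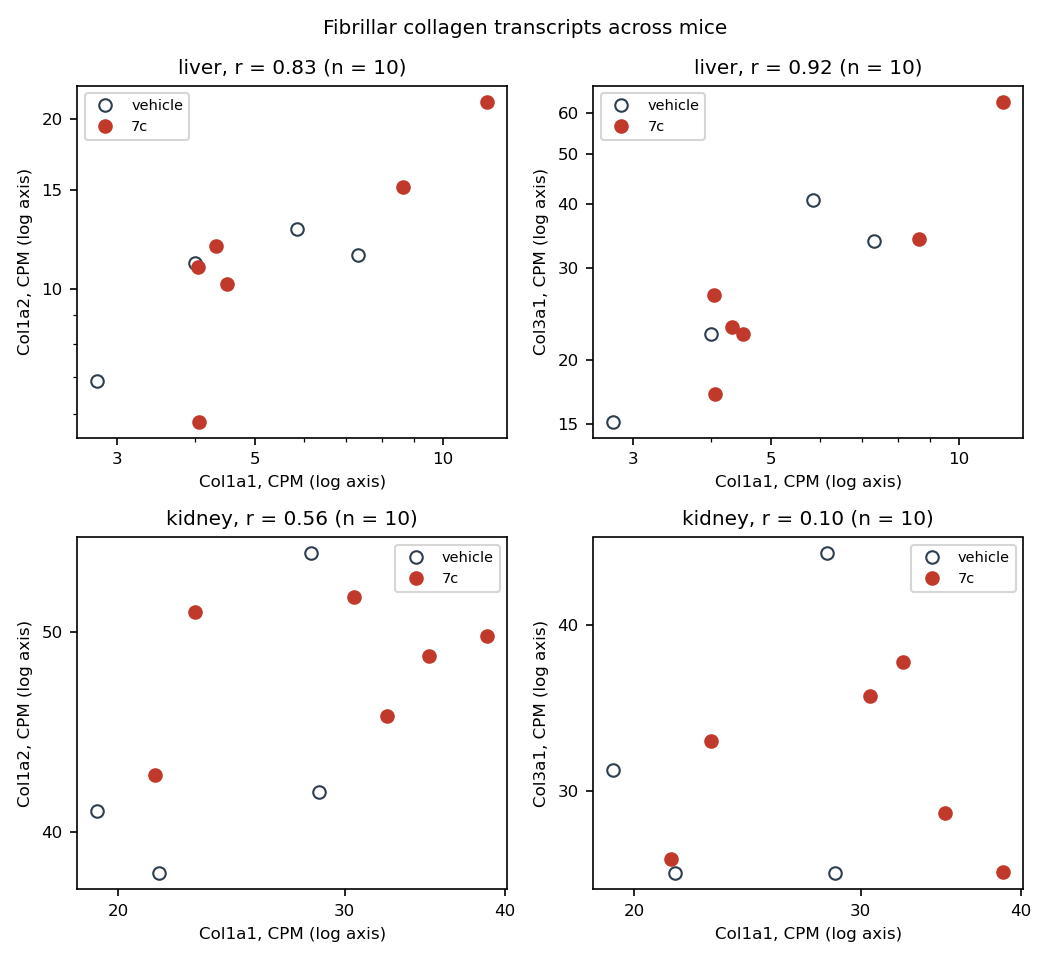
Col1a2 and Col3a1 against Col1a1 in each mouse, in CPM on log axes, with livers above and kidneys below and open points for vehicle and filled points for 7c mice. In liver the points follow a line (r = 0.83 and 0.92, n = 10), with 7c liver 1 at the top right, and in kidney they scatter (r = 0.56 and 0.10).

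The genes whose pattern over the 10 libraries of a tissue was most like a member's were listed by Pearson r, with no test, among all genes tested there. For Col1a1 in liver these were Col3a1 (r = 0.92), Anapc4 (0.91), Tnxb (0.89), Ccdc3 (0.89) and Fbln5 (0.88), of which Tnxb and Fbln5 encode matrix proteins, and Col1a2 came at rank 25 of 15012. For Col1a1 in kidney they were C1qc (0.96), Tkt, Mapk11, Rasa4 and Ptp4a3 (each 0.95), and Col1a2 came at rank 3436 of 17749. For Ccn2 they were Enah (0.96), Lmbrd1, Adamts1, Psma5-ps and Slc15a2 in liver, and Pibf1 (0.93), Fli1, Plxna2, Vamp3 and Thada in kidney. For Acta2 they were Nelfb (0.98), Capn6, Mospd2, Adamtsl2 and Ldb2 in liver, and Zcrb1 (0.97), Atp5mg, Psmb1, Gm128 and D17H6S53E in kidney. In kidney 272 genes had an r above 0.9 with Acta2 and 122 below -0.9, against 3 and 0 in liver, and the 2 kidneys that stood apart are the 2 with the highest Acta2.

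The wider pathway was followed through 9 lists of 114 genes in all. In liver 102 and in kidney 109 of them were tested against 7c, and 0 passed in either tissue (edgeR). DESeq2, limma-voom and the likelihood ratio test also called 0 of them. Without adjustment 3 genes, or 2.94%, were under 0.05 in liver, where 3.76% of all genes were, and 4 genes, or 3.67%, in kidney, where 2.61% of all genes were. The median log2 fold change of a list lay between -0.12, for the YAP and TEAD targets in liver, and 0.19, for the contractile and cytoskeletal genes in kidney.

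The listed genes with the lowest p in each list are given as values that did not pass. Because they were picked by p, counts of 7c mice outside the vehicle range follow in part from that choice. The share of all genes with such a separation was not computed. Leaving out 1 mouse moved 11 of the 17 liver values and 7 of the 17 kidney values chosen in this way by over 1.5 times, and turned the sign of 0. Among those that store or activate TGF-beta, the latent binding protein Ltbp3 had a log2 fold change of 0.54 in liver and 0.30 in kidney, where 5 of 6 7c kidneys were above the vehicle range of 27.8 to 29.0 CPM. Ltbp1 had 0.58 in liver and Ltbp4 had 0.22 in kidney. Among the receptors, the activin receptor gene Acvr2a had -0.33 in liver, with 5 of 6 7c livers below the vehicle range, and the co-receptor gene Tgfbr3 had -0.45, or -0.21 without vehicle liver 1. In kidney Acvr2b had 0.40 and Acvrl1 had 0.28. Among the inhibitors, Pmepa1, also a target of the pathway, had 0.46 in liver and 0.20 in kidney, Dcn had -0.16 in liver, or -0.062 without vehicle liver 2, and Smurf1 had -0.24 in kidney. Among the other targets Snai1, a transcription factor of epithelial-mesenchymal transition, had 1.12 in liver at no more than 1.15 CPM, and Postn, or periostin, had -0.42 in kidney at no more than 2.19 CPM.

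Col6a2, a chain of type VI collagen, had the lowest p among the listed genes, and its separation of the groups follows in part from being picked by p. It stood at 11.5, 7.96, 10.8 and 9.57 CPM in vehicle kidneys, and at 13.5, 17.3, 13.3, 14.3, 21.6 and 13.95 CPM in 7c kidneys. All 6 7c kidneys were above all 4 vehicle kidneys, the log2 fold change was 0.65 (SE 0.17; unadjusted p = 0.00243, adjusted p = 0.997, edgeR), and it was 0.44 (adjusted p = 0.580) without the 2 libraries that stood apart, which held the highest and the lowest value. Col6a1, another chain of type VI collagen, had a log2 fold change of 0.44 in kidney, with 5 of 6 7c kidneys above all vehicle kidneys, and of 0.33 in liver. The third listed chain, Col6a3, had 0.27 in kidney and 0.064 in liver. For Col6a1 the kidney value was 0.26 (adjusted p = 0.6249, edgeR) without the 2 libraries that stood apart, of which vehicle kidney 2 held the lowest Col6a1. Col15a1 had 0.34 in liver.

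In the remaining lists Eln (0.73) and Fbn1 (0.54), which encode elastin and fibrillin, had the lowest p among matrix proteins in liver. In kidney they were Plod1 (0.15), which encodes a lysyl hydroxylase, and Loxl1 (0.24), which encodes a lysyl oxidase-like enzyme. Among the proteases and their regulators these were Adamts1 (-0.24) and Adamts2 (0.36) in liver and Adamts2 (0.34) and Plau (-0.37) in kidney. Of these, Fbn1 was 0.30 without 7c liver 1, Adamts1 was -0.15 without vehicle liver 1, and Adamts2 in liver lay between 0.11, without vehicle liver 3, and 0.64, without vehicle liver 4. Loxl1 was 0.43 without the 2 kidneys that stood apart. Among contractile genes they were Lmod1 (0.60) and Mylk (-0.24) in kidney, and Tpm2 (2.73) and Des (1.21) in liver. The last 2 values rest on 7c liver 6, the library with skeletal muscle transcripts: without it they were 0.08 for Tpm2 and 0.24 for Des. Among YAP and TEAD targets they were Nt5e (-0.47) and Arhgef17 (-0.38) in liver and Crim1 (-0.24) and Nt5e (-0.31) in kidney, the last at -0.022 without vehicle kidney 1.

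**Figure D5:**
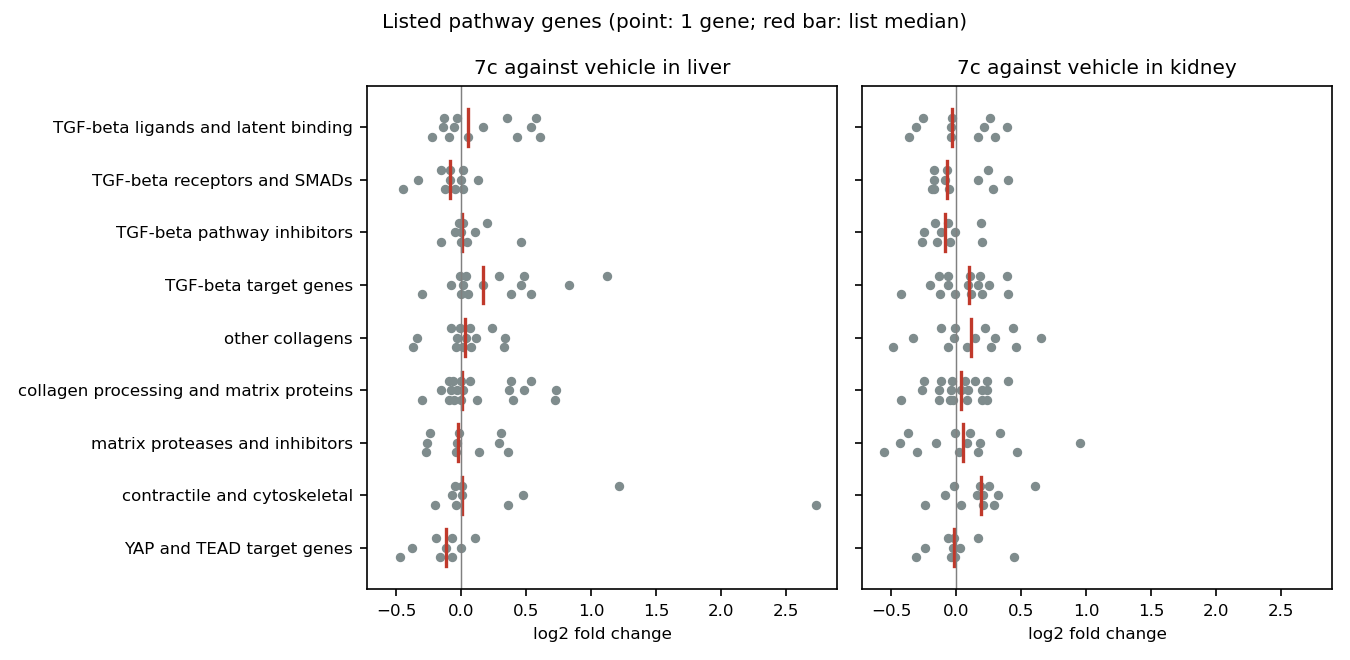
Log2 fold change of 7c over vehicle for the tested genes of 9 pathway lists in liver and kidney; each point is 1 gene and the red bar is the list's median. No gene passed an adjusted p of 0.05, list medians lie between -0.12 and 0.19, and the 2 rightmost liver points in the contractile row, Tpm2 (2.73) and Des (1.21), rest on 7c liver 6.

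Between the tissues of vehicle mice 75 of the 112 listed genes tested differed, or 67.0% where 57.9% of all genes did, 51 higher in kidney and 24 lower, where 31.0% of all genes were higher and 26.8% lower. The counts of each list below are read against these shares, and lists of 10 to 21 genes give coarse ones. Among the ligands and latency genes 6 of 14 were higher in kidney and 4 lower, and the largest ratio was that of Inhbe, which encodes the subunit of activin E and is known from hepatocytes, at 1264 to 1978 counts in vehicle livers and 0 to 2 counts in vehicle kidneys (adjusted p = 8.77e-13, edgeR). Among receptors and SMADs 3 of 11 were higher and 1 lower, with the endothelial receptor gene Acvrl1 at 3.76-fold higher (log2 1.91, SE 0.22). Among inhibitors 2 of 10 were higher and 5 lower, and among targets 6 of 16 were higher and 4 lower, with Pmepa1 in both lists at 13.0-fold higher (log2 3.70, SE 0.22).

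Of the other collagens 6 of 14 were higher and 4 lower in kidney, with Col5a3 at 22.1-fold lower (log2 -4.47, SE 0.24, adjusted p = 3.68e-13, edgeR). Of the processing and matrix genes 10 of 21 were higher and 5 lower, with Plod2, a lysyl hydroxylase, at 0 to 44 counts in vehicle livers and 861 to 1901 in vehicle kidneys (adjusted p = 1.44e-07). Of the proteases and inhibitors 8 of 14 were higher and 3 lower, with the metalloproteinase gene Mmp19 at 1341 to 2451 counts in liver and 4 to 18 in kidney (adjusted p = 7.72e-14). Of the contractile genes 7 of 12 were higher and 1 lower, with Lmod1, a smooth muscle actin nucleator, at 0 to 12 counts in liver and 183 to 292 in kidney (adjusted p = 4.26e-05). Of the YAP and TEAD targets 6 of 10 were higher and 0 lower, and the largest ratio was that of Ankrd1, at 0 to 4 counts in liver and 2 to 18 in kidney (adjusted p = 0.0439), which passed in the full fit but not with the 8 vehicle libraries alone (adjusted p = 0.0868).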

How the data were processed

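The authors deposited 1 table of raw read counts per gene, made per the labels from stranded polyA libraries with STAR 2.7.11b and featureCounts 2.0.6 on GRCm39. The strand setting of the counting is not given in the sources used here. Whether both mates of a fragment were counted is not given either, and 79.0% of all counts from 1 to 10 were even. Genes with at least 10 counts in 50% of the libraries of a fit were kept and scaled by TMM, and edgeR 4.0.16 (R 4.3.3) quasi-likelihood F-tests compared 7c with vehicle within each tissue. One fit of all 20 libraries gave the tissue comparison and the interaction, and p-values were adjusted over all genes tested, with a threshold of 0.05. DESeq2 1.42.0, limma 3.58.1, other filters and leaving out each mouse served as alternatives. Permutation tests of correlations were two-sided with 100000 permutations on log2 CPM (prior count 2). Exonic lengths came from GENCODE vM39 and promoter windows from RefSeq on GRCm39. The main edgeR fit of each comparison was tested on simulated data, and the alternatives were not. No 2 of the 20 libraries agreed within sampling noise (chi-square per gene of at least 21.2 over 190 pairs). The members, lists and tests were chosen with earlier results of these data known. From each list the 2 genes of lowest p per tissue were named, any gene past the threshold, and for the tissue comparison the largest change per list.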

Additional observations from a re-analysis of the deposited data

Results flagged for a closer look

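Within groups of 4 or 6 mice, 18 of 160 sets of values had 1 sample farther from the others than Dixon's 95% limit allows, where chance flags about 5%. Among the 9 genes there were 3 such values. Col3a1 was 62.9 CPM in 7c liver 1, against 17.1 to 34.2 CPM in the other 7c livers. Acta2 was 60.6 CPM in 7c kidney 5, against 30.3 to 38.1 CPM, and 51.4 CPM in vehicle kidney 2, against 27.8 to 28.1 CPM.

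Other kidney values stood out too. In 7c kidney 5 the fibroblast marker sum was 278 CPM and the kidney tubule marker sum 72525 CPM. In vehicle kidney 2 the hepatic stellate cell marker sum was 285 CPM and Acvrl1 was 23.3 CPM, both high, while Col6a1 at 11 CPM, Mylk at 62.1 CPM and the adrenal cortex marker sum at 3.01 CPM were low. In 7c kidney 3 Ltbp3 at 28.4 CPM and Pmepa1 at 28.6 CPM were low.

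In liver the skeletal muscle marker sum of 788 CPM, Tpm2 at 82.5 CPM and Des at 31.8 CPM stood out in 7c liver 6. Adamts2 was high in 7c liver 1 at 10.7 CPM. The podocyte and mesangium marker sum was high in vehicle liver 2 at 62.7 CPM, and the kidney tubule marker sum in vehicle liver 3 at 1.76 CPM. No explanation of these values was tested.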

How the results depend on the processing

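Under every alternative run, 0 of the 9 genes and 0 of the listed pathway genes passed in the comparisons of 7c with vehicle and in the interaction, and 6 or 7 of the 9 passed between tissues. The number of genes called among all genes did change. In liver edgeR called 1 gene, and the count was 6 in DESeq2, 7 with the likelihood ratio test, 4 with no filter, 2 with filterByExpr, 4 with both tissues in one fit and 0 to 2 when each mouse was left out. In kidney it called 0, and the count was 18, 14 and 3 under the first 3 of these, 2 in limma-voom, 18 with both tissues in one fit, 3 without the 2 libraries that stood apart (an alternative chosen after seeing the data) and 0 to 3 with each mouse left out. For the interaction, 1 gene became 16, 22 and 11 under the first 3, and 0 to 6 with each mouse left out. The count of correlated pairs, 2, became 0 to 2. For the listed genes named between tissues, 8 values under an alternative no longer passed and 120 kept their result. The Col1a1 to Col1a2 ratio in vehicle livers was 0.426 by longest transcript.

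The fit with the replicate number as a block called 0 genes in liver and 0 in the interaction. Between tissues it called 10381 genes against 10762 without the block, with 6 of the 9 members in both. Deviations from the group means of same-numbered livers and kidneys correlated at r 0.0115 to 0.259 over 10 pairs, 7 of them above 0.1, and 8 of 10 were closest to their own number, a hint from the data that numbers may mark mice, which the labels do not state. Those not closest to their own number were 7c 5 (r 0.0167) and vehicle 2 (r 0.0115), whose kidneys stood apart. Since 3 pairs were at or below 0.1 the numbers were not taken as pairs. For 7c and vehicle mice of 1 number, r was -0.0267 to 0.211 in kidney and -0.0455 to 0.0338 in liver. With the block, 5 log2 values that passed no test changed sign: Smad7 in liver became 0.020, Fn1 in liver -0.053, Col3a1 in kidney 0.028, Nt5e in kidney 0.011 and Col1a1 in the interaction 0.036. Others kept their sign and came closer to 0, among them Acta2 in liver at 0.046, Col1a2 in liver at 0.12, Col3a1 in liver at 0.078, and Tgfb1 at 0.10, Ccn2 at 0.027, Fn1 at 0.12 and Acta2 at 0.13 in kidney, while Tagln in kidney became -0.31. The vehicle mice carry only 4 of the 6 numbers, so 7c mice 5 and 6 add nothing to this fit within a tissue.

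Leaving out each mouse in turn, values that passed no test crossed 0. In liver these were Tgfb1 (-0.19 to 0.047), Ccn2 (-0.31 to 0.12), Col3a1 (-0.18 to 0.39) and Fn1 (-0.048 to 0.17). In kidney they were Smad7 (-0.035 to 0.14), Col3a1 (-0.13 to 0.17) and Tagln (-0.18 to 0.092), and between tissues Tagln (-0.11 to 0.31). In the interaction they were Col1a1 (-0.35 to 0.28), Col1a2 (-0.27 to 0.17), Col3a1 (-0.50 to 0.24), Fn1 (-0.022 to 0.53) and Acta2 (-0.39 to 0.026). Among correlations they were Col1a1 with Fn1 (-0.46 to 0.14) and Tgfb1 with Ccn2 (-0.018 to 0.24) in liver, and Col1a1 with Col3a1 (-0.012 to 0.35), Acta2 with Tagln (-0.52 to 0.071) and Tgfb1 with Ccn2 (-0.37 to 0.17) in kidney, the last at 0.33 without the 2 libraries that stood apart. The causes were not tested. Counts of 2 to 18 for Tagln in liver limit what can be said of that gene, and no alternative removes its overlap with antisense genes. Leaving out 1 kidney library at a time moved other log2 values without changing their direction, for Ccn2 from 0.012 (without 7c kidney 6) to 0.26 (without vehicle kidney 1), for Tgfb1 from 0.16 (without vehicle kidney 4) to 0.46 (without vehicle kidney 2), for Col1a1 from 0.20 (without vehicle kidney 1) to 0.40 (without vehicle kidney 2) and for Col1a2 from 0.077 (without vehicle kidney 4) to 0.26 (without vehicle kidney 3).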
